A study of Mus musculus with 8 samples.

Results

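The genes described here carry cholesterol into, through and out of cells. They are *Scp2*, *Scarb1*, *Npc1*, *Npc2*, *Stard3*, *Soat1*, *Lipe* and *Abca1*, 8 of the 45583 gene symbols in the deposited count table, and all 8 passed the filter on low counts that left 16601 genes. *Scp2* was chosen by its own difference between the groups in these counts, and the other 7 genes by their function in cholesterol handling, with earlier results of these data known. The values of *Scp2* between the groups are therefore given as a description.

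Whole ovaries of C57/Bl6 mice aged 3 weeks were sequenced, 1 library per mouse, with 4 mice labelled WT (animal numbers 1118, 1119, 1120 and 1121) and 4 labelled GOAT KO (1139, 1140, 1141 and 1146). *Mboat4* encodes GOAT (ghrelin O-acyltransferase), by which the hormone ghrelin receives its fatty acid. The knockout is a germline deletion present in all tissues, so no promoter or Cre driver limits it to one cell type, and both groups were littermates from heterozygous parents. The comparison asks what the loss of acylated ghrelin does to the juvenile ovary.

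Steroid-producing cells of the ovary need cholesterol. They take it from lipoproteins, free it in late endosomes, move it between membranes, store the surplus as esters in lipid droplets and return what is left to carriers outside the cell. Scavenger receptor class B type I (*Scarb1*) takes up cholesteryl ester from high-density lipoprotein. NPC2 and NPC1 hand cholesterol out of the late endosome, and STARD3 moves it between late endosome and endoplasmic reticulum. SOAT1 makes the ester, hormone-sensitive lipase (*Lipe*) splits it, and ABCA1 exports cholesterol to apolipoprotein A-I. *Scp2* gives a long and a short protein. The long form, SCPx, is a peroxisomal thiolase joined to a lipid-carrying domain and shortens the side chains of branched fatty acids and bile acid precursors. The short form is the lipid carrier alone, made from a start inside the gene.

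The targeted gene came first as a check of the labels. *Mboat4* had 1, 1, 1 and 3 counts in the libraries labelled WT and 5, 7, 7 and 8 in those labelled GOAT KO. The counts went against the labels (exact permutation test of counts scaled to library size, two-sided p = 0.0286, the smallest that 4 against 4 can give). They are only 1 to 8 reads per library, and a count per gene does not show which part of the gene they come from. These counts therefore do not settle whether any label is wrong, and the groups are named below by their labels only. Counts on genes summed to between 16147216 and 19481798 per library. Markers of the ovary were present in every library, with 6 granulosa cell markers summing to between 3797 and 4966 CPM (counts scaled to a library of 1000000 counted reads) and 7 oocyte markers to between 928 and 1133. *Inha*, the inhibin alpha subunit, made up 3093 to 3951 CPM of the granulosa sum. By an unadjusted p under 0.05 in edgeR with a log2 fold change over 0.3, 2 of the 6 granulosa markers were higher in the libraries labelled GOAT KO, *Fshr*, the receptor for follicle-stimulating hormone (0.47), and *Hsd17b1*, a steroid dehydrogenase (0.31), as was 1 of the 7 oocyte markers, *Figla* (0.46), beside 1.58% of all genes. Their part in the results below was not tested. GOAT KO 1139 stood apart in fat cell markers. The 6 of them summed to 459 CPM there and to between 13.5 and 30.7 in the other 7 libraries, and none was at 0 in all libraries. In whole ovaries, fewer cells of a type and less RNA per cell cannot be told apart.

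*Scp2* lies on the minus strand of chromosome 4 (chr4:108043839-108144998, GRCm38). Its long form has 16 exons. The short form begins just upstream of exon 12, runs into it and uses exons 12 to 16, so that 11 splice junctions belong to the long form alone, 4 belong to both forms and none belongs to the short form alone. The sequences below, taken from the GENCODE M21 transcript of the long form (GRCm38, minus strand), are shown because they decide which form a read of 50 bases can report. Each runs 5′ to 3′ over 50 coding bases, with the last bases of one exon in lower case and the first bases of the next in capitals. The first pair spans junctions of the long form only, from chr4:108118379 to 108112284 and from chr4:108074356 to 108071410.
Exons 1 and 2: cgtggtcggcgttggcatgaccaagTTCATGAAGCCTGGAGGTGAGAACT
Exons 11 and 12: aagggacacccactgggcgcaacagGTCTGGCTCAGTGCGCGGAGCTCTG
The remaining 4 join exons that both forms use.
Exons 12 and 13: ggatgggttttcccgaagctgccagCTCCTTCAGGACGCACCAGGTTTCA
Exons 13 and 14: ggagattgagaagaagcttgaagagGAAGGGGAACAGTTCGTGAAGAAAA
Exons 14 and 15: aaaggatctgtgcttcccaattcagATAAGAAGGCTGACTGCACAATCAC
Exons 15 and 16: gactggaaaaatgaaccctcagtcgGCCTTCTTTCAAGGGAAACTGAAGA

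All 4 of these shared sequences occur without a single mismatch on chromosome 9, in an intronless copy of the gene named *Scp2-ps2*. They lie at chr9:123307892-123307941, chr9:123307789-123307838, chr9:123307659-123307708 and chr9:123307579-123307628. The copy was 99.6% identical to the long form over 1371 aligned bases. Of the 1425 stretches of 50 bases in exons 12 to 16, 1070 (75.1%) were identical in the copy, and of the 1117 in exons 1 to 11 none was. The 2 long-form sequences differed from the best match in the copy at 27 and 25 of 50 bases. A read across a shared junction therefore matches the copy without a gap. On the opposite strand of the same locus lies a non-coding gene, Gm47162, whose exons at chr9:123307084-123307280 and chr9:123307734-123307983 overlap the copy over 197 and 250 bases, and its counts were not analysed here. Reads of the copy and of Gm47162 there cannot be told apart, since the use of strand in the counting is not given.

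In the junction files, the 4 shared junctions held 0 reads in all 8 libraries, while the 11 long-form junctions held between 126 and 321 reads per library. The copy took 198, 265, 271 and 246 counts in the libraries labelled WT and 313, 230, 360 and 285 in those labelled GOAT KO. Over the identical stretches, reads of the parent gene and of the copy cannot be told apart. No read joined the distal first exon that is annotated at the far end of the gene.

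The 250 bases before the annotated start of the long form are shown because the long-form reads carry the difference described next. They lie at chr4:108118548-108118797 on the minus strand (RefSeq, GRCm38.p6) and run 5′ to 3′, with the match to a GC box in capitals.
*Scp2*, long form: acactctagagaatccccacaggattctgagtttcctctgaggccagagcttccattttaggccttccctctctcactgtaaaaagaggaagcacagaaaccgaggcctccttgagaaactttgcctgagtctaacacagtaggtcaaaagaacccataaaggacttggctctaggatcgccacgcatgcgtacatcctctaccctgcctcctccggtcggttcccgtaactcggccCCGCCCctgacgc
Both strands were searched for GGGCGG, the GC box. They were also searched for TATAAA, the TATA box. The third motif was CACGTG, an E-box, and no matches overlapped in the *Scp2* window. The *Scp2* window held 1 GC box, and 32.7% of the 32851 windows of the same length held at least 1. It held no TATA box or E-box, which occurred in 12.4% and 6.02% of windows. Its GC content was 53.6%, beside a median of 52.4% over all windows. RefSeq windows matched 6 of the 8 genes. Those of *Npc2*, *Stard3* and *Abca1* held 3, 4 and 2 GC boxes, that of *Soat1* none, and of the windows of *Lipe* one held 6 and the other none. *Abca1* also held 1 TATA box and 1 E-box, and *Lipe* 1 E-box.

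*Scp2* was the gene whose values chose it. Its counts were 639, 713, 692 and 764 in the libraries labelled WT and 922, 881, 1062 and 936 in those labelled GOAT KO. In normalized CPM the former were 39.6, 39.6, 38.0 and 41.7 and the latter 55.2, 53.8, 54.4 and 54.4. The lowest of the latter exceeded the highest of the former. The mean was 39.7 ± 1.51 CPM (SD, n = 4) in the libraries labelled WT and 54.4 ± 0.546 CPM in those labelled GOAT KO, a log2 fold change of 0.46 ± 0.06 (SE).

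The selection rested on an adjusted p (edgeR quasi-likelihood test, Benjamini-Hochberg over the whole table) below 0.05, which 4 genes or 0.0241% passed. *Scp2* stood just inside at an adjusted p of 0.0299, and the next gene, *Dctn6*, stood just outside at 0.0739. Of the 8 genes, 1 was called, and this count follows from the choice. The log2 fold change kept a value between 0.43 and 0.48 when each library was left out in turn. Its adjusted p in edgeR then rose to between 0.0603 and 0.199 in 7 of those 8 fits, and stayed under the threshold, at 0.0394, without GOAT KO 1139. In the 6 libraries without WT 1120 and GOAT KO 1139, it was 0.43 with an adjusted p of 0.0381. With the counts of the copy added to those of *Scp2*, the log2 fold change was 0.42 with an adjusted p of 0.0582 in edgeR.

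**Figure D1:**
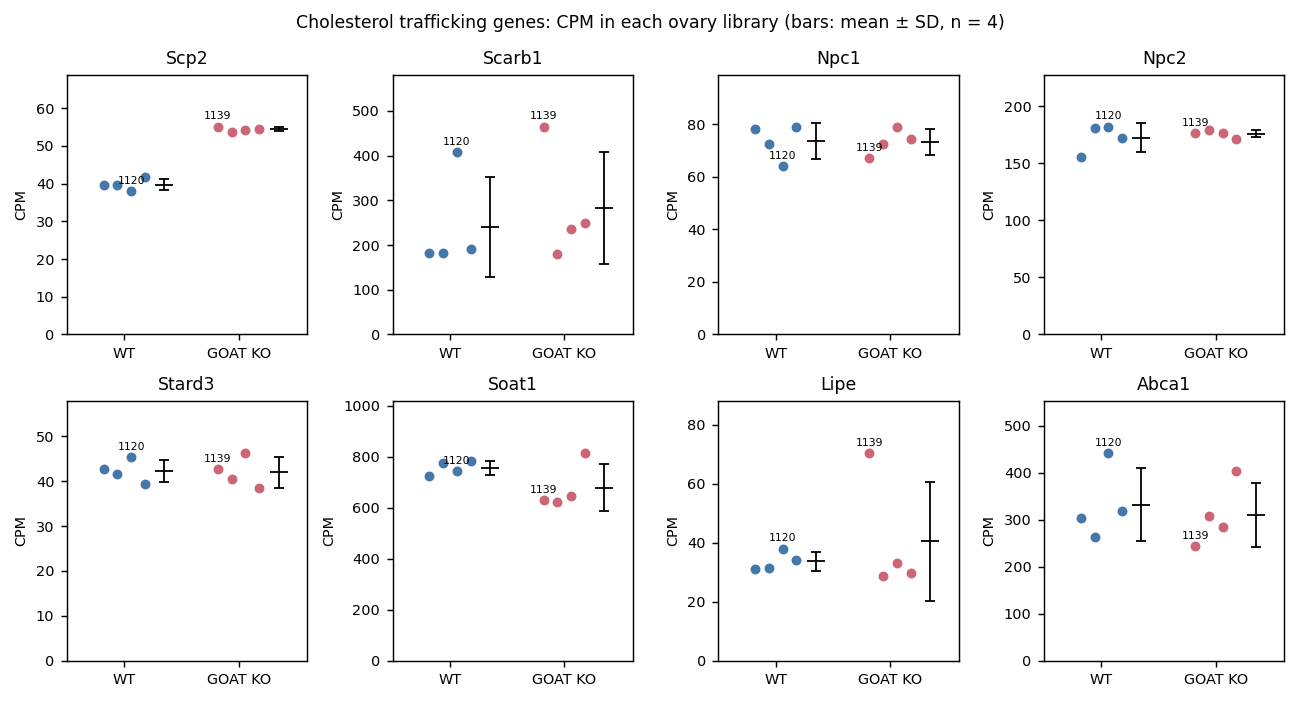
Normalized counts (CPM, linear axes from 0) of the 8 genes, with 1 point per library and the mean ± SD of 4 libraries beside it; WT 1120 and GOAT KO 1139 carry their animal numbers. The points of *Scp2* sit between 38.0 and 41.7 in the libraries labelled WT and between 53.8 and 55.2 in those labelled GOAT KO, while the groups overlap in each of the other 7 genes.

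The exons of the long form carried a larger difference than the gene count. Reads across the 11 long-form junctions numbered 126, 193, 127 and 152 in the libraries labelled WT and 238, 249, 321 and 294 in those labelled GOAT KO. On the scale of CPM, the means were 8.45 ± 1.61 (SD, n = 4) and 15.7 ± 1.27, a log2 ratio of 0.90. No library labelled WT reached the lowest library labelled GOAT KO, 10.7 against 14.2. These reads are part of the contrast that chose the gene, so no test is given.

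The first junction of the long form, between exons 1 and 2, had 2, 5, 0 and 2 reads in the libraries labelled WT and 15, 11, 15 and 10 in those labelled GOAT KO. The second, between exons 2 and 3, had 2, 12, 5 and 8 against 15, 19, 26 and 21. The last, between exons 11 and 12, had 14, 20, 21 and 16 against 24, 31, 40 and 33. At these junctions the groups were apart. With reads scaled to library size, the groups were apart at 7 of the 11 long-form junctions and overlapped at the remaining 4 (in unscaled reads they were apart at 5). The junction between exons 9 and 10, listed in every library, had 12, 13, 7 and 13 reads in the libraries labelled WT and 9, 18, 20 and 15 in those labelled GOAT KO. Some junctions were missing from 1 or more libraries labelled WT that held reads at other junctions. The junction between exons 10 and 11 had 31, 20, 0 and 40 reads against 29, 31, 23 and 34. That between exons 6 and 7 had 16, 21, 0 and 0 against 24, 17, 34 and 24, and that between exons 4 and 5 had 0, 23, 15 and 1 against 21, 19, 29 and 28. Over the 7 junctions that every library listed, the means were 5.94 ± 0.878 and 10.5 ± 1.17 reads on that scale, a log2 ratio of 0.83.

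The assembled transcripts that the authors deposited gave the same order by depth, the number of reads over a base. Over exons 1 to 11 the depth, scaled as CPM, was 0.703, 0.856, 0.617 and 0.663 in the libraries labelled WT and 1.26, 1.24, 1.40 and 1.41 in those labelled GOAT KO, a log2 ratio of the means of 0.90. The last exon, 16, which both forms share, had 1.32, 1.66, 1.97 and 1.64 against 2.16, 1.89, 1.68 and 1.55. There the groups overlapped, and the log2 ratio of the means was 0.14. By single exons, the groups did not overlap at 10 of the 11 long-form exons, with exon 5 as the exception, and at 1 of the 5 shared exons, exon 12. Exon 14 was assembled in no library, and it lies within the part that aligns to the copy.

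**Figure D2:**
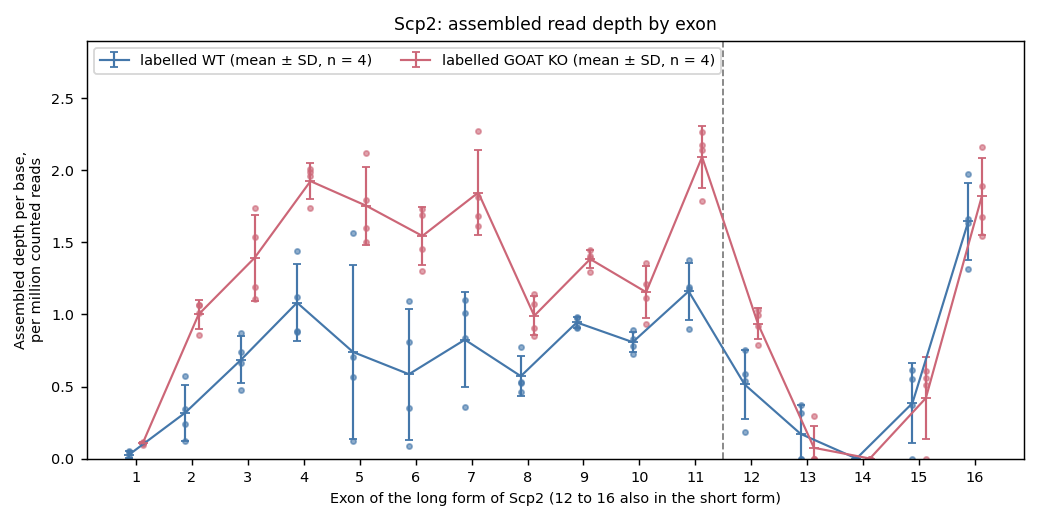
Depth of the assembled transcripts (reads per base, scaled as CPM) at each of the 16 exons of the long form of *Scp2*, with 1 point per library and lines through the mean ± SD of 4 libraries per group; exons right of the dashed line are also in the short form. The groups are apart at exons 1 to 4 and 6 to 12, overlap at exons 5, 13, 15 and 16, and stand at 0 at exon 14.

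The copy gave a smaller difference than the long form. *Scp2-ps2* had 12.3, 14.7, 14.9 and 13.4 CPM in the libraries labelled WT and 18.7, 14.1, 18.4 and 16.6 in those labelled GOAT KO, and the groups overlapped. Its log2 fold change was 0.29 ± 0.11 (SE), with an adjusted p of 0.983 in edgeR. Its assembled depth over a single exon of 432 bases (chr9:123307508-123307939) had means of 2.99 ± 0.328 and 3.49 ± 0.345 on the scale of CPM, and the groups overlapped again.

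Set against the copy, the long-form depth was 27.6%, 27.9%, 18.5% and 22.04% in the libraries labelled WT and 31.8%, 39.3%, 39.8% and 42.5% in those labelled GOAT KO. The means were 24.0 ± 4.56% and 38.4 ± 4.60% (SD, n = 4), and the groups did not overlap. Against the last exon in place of the copy, they were 44.2 ± 10.3% and 74.7 ± 15.4%. These percentages compare exons of one form with sequence that holds both forms and any transcript of the copy itself. They do not give the share of either protein, and what the copy alone contributes was not tested.

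**Figure D3:**
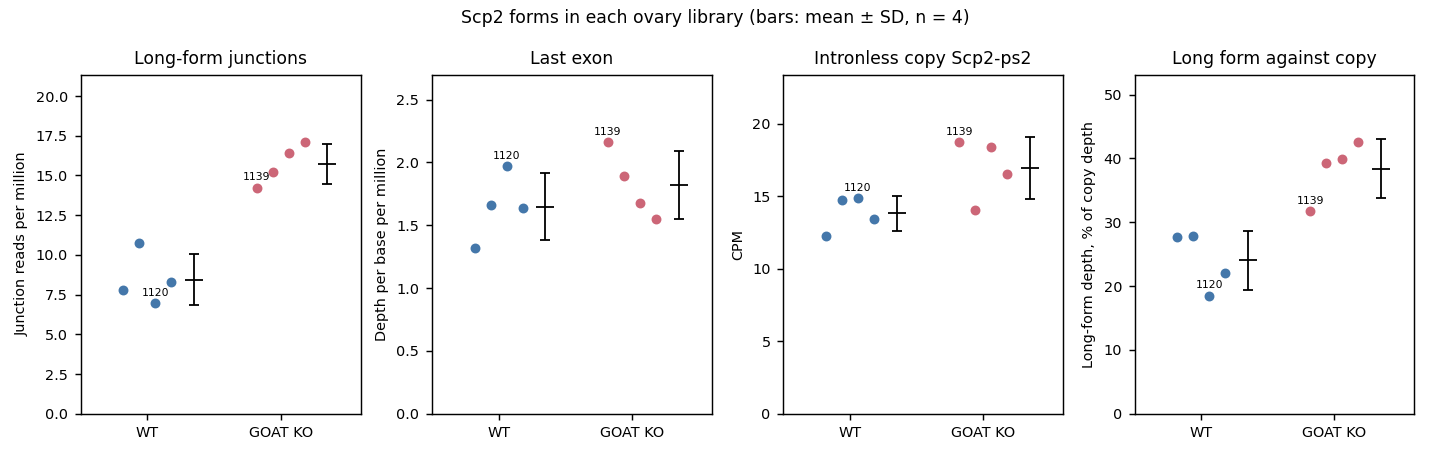
From left to right, reads across the 11 long-form junctions of *Scp2* and depth of its last exon, both scaled as CPM, CPM of the intronless copy *Scp2-ps2*, and long-form depth as percent of the depth of the copy, with 1 point per library and the mean ± SD of 4 libraries beside it. The groups are apart in the first and last panels, at up to 10.7 against at least 14.2 reads and at up to 27.9% against at least 31.8%, and overlap in the panels between.

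*Scarb1* (chr5:125277087-125341094, minus strand) is the receptor for selective uptake from high-density lipoprotein. It had 182, 183, 408 and 190.4 CPM in the libraries labelled WT and 465, 180.1, 236 and 249.8 in those labelled GOAT KO. One library of each group stood high, WT 1120 and GOAT KO 1139, and the rest lay within 180.1 to 249.8 CPM. The log2 fold change was 0.23 ± 0.32 (SE), with an adjusted p of 0.983 in edgeR, and 2 SE either side of it ran from -0.41 to 0.87. It was 0.61 without WT 1120 and -0.12 without GOAT KO 1139, and 0.26 without both.

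The high libraries were also high in *Cyp17a1* and *Star*, though not in every marker of steroid-making cells. *Cyp17a1*, which makes androgen precursors in theca cells, had 355 CPM in WT 1120 and 601 in GOAT KO 1139, and between 42.4 and 138 in the other 6. *Star*, which carries cholesterol into mitochondria, had 31.9 and 234 CPM in these libraries and between 8.14 and 20.5 elsewhere. The 6 theca and steroidogenic markers summed to 3118 and 3165 CPM in these libraries and to between 1967 and 2825 in the others, with no marker at 0 in all libraries. *Hsd3b1*, a steroid dehydrogenase, had 2226 and 1851 CPM in them and between 1658 and 2284 elsewhere, and *Cyp11a1*, the side-chain cleavage enzyme, had 472 and 443 against 197 to 446. *Lhcgr*, the receptor for luteinizing hormone, had 31.8 and 37.3 CPM against 22.1 to 36.5, and *Insl3*, a theca cell hormone, was under 1 CPM in every library. Among the granulosa markers, *Cyp19a1* had 65.0 and 45.2 CPM in WT 1120 and GOAT KO 1139 and between 5.06 and 31.6 elsewhere. *Foxl2* had 69.7 and 65.9 CPM against 36.7 to 54.5. *Amh*, *Fshr*, *Inha* and *Hsd17b1* did not part the libraries in this way. The part of these markers in the level of *Scarb1* was not tested.

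*Scarb1* has forms with and without a 129-base exon near its 3′ end (chr5:125281105-125281233), and the proteins, SR-BI and SR-BII, differ in their tails. The exon was skipped in 28, 30, 57 and 30 junction reads in the libraries labelled WT and in 47, 21, 34 and 37 in those labelled GOAT KO. Against the mean of the junctions on either side of the exon, skipping made up 29.3%, 34.5%, 26.8% and 34.5% in the former and 26.2%, 26.6%, 26.1% and 35.4% in the latter. The means, 31.3 ± 3.86% and 28.6 ± 4.57% (SD, n = 4), did not differ beyond that spread (exact permutation test, two-sided p = 0.4). The difference was -2.70 percentage points. Without GOAT KO 1146 it was -4.99 points and the groups did not overlap (exact permutation p = 0.0571, the smallest that 3 against 4 can give). Against the upstream junction alone, with all libraries, it was -8.15 points (exact permutation p = 0.171). On that measure WT 1118 stood at 46.7% and the other libraries between 21.9% and 30.9%. WT 1118 had 32 reads at the upstream junction and 103 at the downstream one. The counts behind each value are few, and the exact 95% binomial interval of the share in GOAT KO 1140, against the upstream junction alone, ran from 14.2% to 31.8%, counting error only.

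*Npc1* (chr18:12189692-12236400, minus strand) is the membrane protein that lets cholesterol out of the late endosome. It had 78.2, 72.6, 64.3 and 79.2 CPM in the libraries labelled WT and 67.1, 72.7, 79.0 and 74.3 in those labelled GOAT KO. The groups covered the same range, and the log2 fold change was -0.01 ± 0.08 (SE). Its soluble partner *Npc2* (chr12:84754562-84773152, minus strand) had 155, 181, 182 and 172 CPM against 177, 179.5, 176 and 172. WT 1118 was the lowest library, and the log2 fold change was 0.03 ± 0.06. *Stard3* (chr11:98358368-98381112, plus strand) anchors late endosomes to the endoplasmic reticulum and had 42.6, 41.7, 45.4 and 39.3 CPM against 42.7, 40.5, 46.3 and 38.4. Its log2 fold change was -0.01 ± 0.08. The ranges of 2 SE about these values were -0.16 to 0.15 for *Npc1*, -0.09 to 0.15 for *Npc2* and -0.16 to 0.14 for *Stard3*. The sign of each turned when one or more libraries were left out.

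*Soat1* (chr1:156424525-156474331, minus strand), which makes cholesteryl ester for storage, was the highest of the 8 genes. It had 727, 775, 743 and 784 CPM in the libraries labelled WT and 631, 622, 648 and 816 in those labelled GOAT KO. In the latter group, 3 libraries lay below every library labelled WT and GOAT KO 1146 lay above all of them. The log2 fold change was -0.16 ± 0.09 (SE), with an unadjusted p of 0.0994 and an adjusted p of 0.983 in edgeR, and it was -0.26 without GOAT KO 1146.

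*Lipe* (chr7:25379527-25398710, minus strand), the lipase that releases cholesterol from its ester and fatty acids from fat, had 31.2, 31.4, 38.0 and 34.02 CPM in the libraries labelled WT and 70.4, 28.8, 33.0 and 29.6 in those labelled GOAT KO. GOAT KO 1139 was high and the other 3 libraries of that group lay within or below the range of the libraries labelled WT. The log2 fold change of 0.26 ± 0.25 (SE) turned to -0.14 without GOAT KO 1139 (adjusted p in edgeR 0.983 and 0.97). In that library *Fabp4*, a fatty acid carrier of fat cells, had 287 CPM against 4.83 to 14.4 elsewhere, and *Adipoq*, the fat cell hormone, 96.7 CPM against 0.291 to 2.99. The part of fat tissue in the *Lipe* value was not tested. Reads from the far upstream first exon of *Lipe* numbered 8, 3, 6 and 9 in the libraries labelled WT and 0, 0, 4 and 8 in those labelled GOAT KO, too few to set the groups apart.

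**Figure D4:**
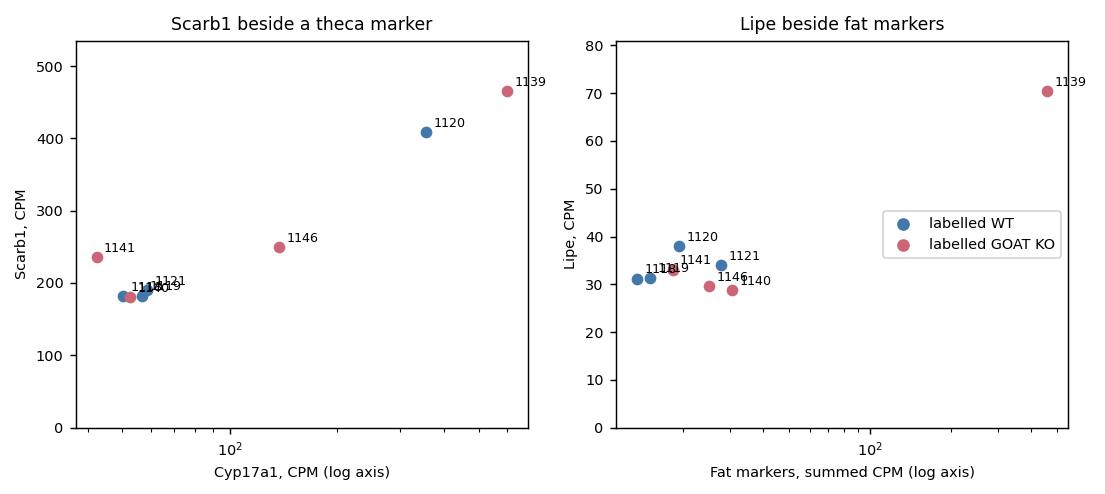
Left, *Scarb1* against *Cyp17a1*, a theca cell gene, and right, *Lipe* against the sum of 6 fat cell markers, all in CPM, with the horizontal axes on a log scale, 1 point per library and animal numbers beside the points. WT 1120 and GOAT KO 1139 are high on both axes at left, at 355 and 601 CPM of *Cyp17a1*, and GOAT KO 1139 alone is high on both at right, at 459 CPM of fat markers.

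*Abca1* (chr4:53030787-53159895, minus strand), the export pump, had 304, 265, 443 and 319 CPM in the libraries labelled WT and 244, 309, 285 and 405 in those labelled GOAT KO. WT 1120 was the highest library and GOAT KO 1139 the lowest, while both were high in *Scarb1*. The log2 fold change was -0.10 ± 0.17 (SE), with an adjusted p of 0.983 in edgeR, and it was 0.07 without WT 1120 and 0.17 without both of these libraries.

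Across the genes other than *Scp2*, the adjusted p in edgeR lay between 0.983 and 0.995, and none was called by the looser rule of the study's pathway analysis, an unadjusted p under 0.05 with a log2 fold change over 0.3 in either direction, which 2.85% of all genes passed. The groups did not overlap in 1 of the 8 genes, *Scp2*, and in 2.92% of all genes. The median log2 fold change of the 8 was 0.01, beside -0.00035 over all genes tested. Reads across all annotated junctions of a gene gave log2 ratios of 0.89 for *Scp2*, 0.22 for *Scarb1*, -0.04 for *Npc1*, 0.06 for *Npc2*, 0.07 for *Stard3*, -0.10 for *Soat1*, 0.31 for *Lipe* and -0.05 for *Abca1*. The sign was that of the gene count in each gene but *Stard3*, and the ratio of *Scp2* exceeded its log2 fold change of 0.46.

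Per kilobase of exon, *Soat1* stood first at 73.4 ± 7.70 RPKM (mean ± SD over all 8 libraries). RPKM is CPM divided by the merged length in kilobases of all annotated exons of a gene, whichever transcript they belong to. That length was 5438 bases for *Npc2*, 8500 for *Scarb1*, 9791 for *Soat1* and 10363 for *Abca1*, so the order depends on the annotation. On these lengths, *Npc2* at 32.1 ± 1.58, *Abca1* at 31.0 ± 6.61 and *Scarb1* at 30.8 ± 13.2 did not differ beyond their spread. *Scp2* at 13.5 ± 2.28 and *Stard3* at 11.8 ± 0.778 came next. Over all libraries their ranges overlapped, but the mean of *Scp2* pools groups that differ. In the libraries labelled WT, *Scp2* ran from 10.9 to 11.98 RPKM, within the range of *Stard3* over all 8 libraries (10.8 to 13.0), and in those labelled GOAT KO from 15.5 to 15.9, above it. *Npc1* at 6.49 ± 0.489 and *Lipe* at 6.29 ± 2.34 stood last and did not differ beyond their spread, although *Lipe* reached 11.96 RPKM in GOAT KO 1139, within the range of *Stard3*. Junction reads on the scale of CPM, as means of the libraries labelled WT, were 27.8 over the 3 annotated introns of *Npc2* and 66.7 over the 17 of *Scarb1*. They were 48.2 over the 49 of *Abca1* and 129 over the 17 of *Soat1*. Whether these genes differ in numbers of transcripts was not tested. The exon length used for *Scp2* includes the exons that the copy shares. Exons of *Npc1* and *Lipe* overlap those of other genes on the opposite strand, *Rmc1* and Gm15956 over 511 and 90 bases and 4732471J01Rik over 918 bases, and reads there cannot be told apart, since the use of strand in the counting is not given.

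**Figure D5:**
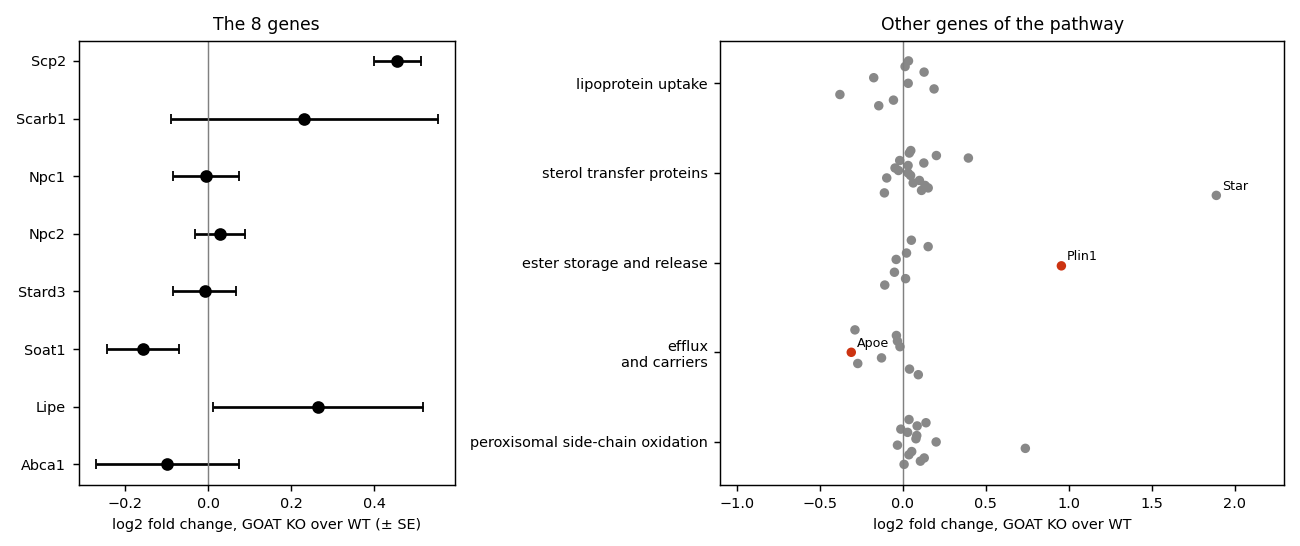
Left, log2 fold change of the libraries labelled GOAT KO over those labelled WT (points) with its SE (bars) for the 8 genes. Right, log2 fold changes of 60 other genes of cholesterol handling in 5 lists, with genes past an unadjusted p under 0.05 and a log2 change over 0.3 in red; *Scp2* lies at 0.46, and the red points are *Plin1* and *Apoe*.

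Few other genes of the pathway passed a test. Of 67 genes in 5 lists, 60 were tested, none had an adjusted p under 0.05 and 2 (3.33%) passed the looser rule, beside 2.85% of all genes. Among 9 genes of lipoprotein uptake, none passed and the median log2 fold change was 0.01. The smallest unadjusted p in edgeR were those of *Pdzk1*, an adaptor that holds SR-BI at the membrane, at 0.182 and *Vldlr*, the receptor for very low density lipoprotein, at 0.222. *Pdzk1* had 15.1 ± 1.45 CPM in the libraries labelled WT and 16.5 ± 0.556 in those labelled GOAT KO, a log2 fold change of 0.13 ± 0.09. *Vldlr* had 103.9 ± 13.8 against 94.0 ± 13.5 CPM, a log2 fold change of -0.15 ± 0.11, and in both genes the groups overlapped.

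Among 19 sterol transfer proteins, none passed and the median log2 fold change was 0.05. The smallest unadjusted p in edgeR were those of *Cav1*, a coat protein of caveolae, at 0.0487 with a log2 fold change of 0.20, and *Tspo*, a sterol-binding protein of the outer mitochondrial membrane, at 0.0528 with 0.39. The log2 fold change of *Cav1* was 0.11 without GOAT KO 1139 and 0.08 in the 6 libraries, and that of *Tspo* was 0.24 without WT 1118. *Star* had the largest log2 fold change of this list, 1.89 ± 0.95, from the high value of GOAT KO 1139. It turned to -0.52 without that library and to -0.10 in the 6 libraries. Among 8 genes of ester storage and release, *Plin1* passed in the higher direction. *Plin1*, which coats lipid droplets, had 5.45, 7.33, 13.3 and 10.6 CPM in the libraries labelled WT and 31.3, 11.4, 11.47 and 17.5 in those labelled GOAT KO. It is also one of the fat markers, and GOAT KO 1139 was again the highest. Without that library its log2 fold change was 0.54 in place of 0.96 and the unadjusted p in edgeR 0.07, and it also missed the threshold without WT 1118 (0.0593) or WT 1119 (0.0536). In the 6 libraries it passed, at 0.78 with an unadjusted p of 0.00717 in edgeR.

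Among 9 genes of efflux, *Apoe* passed in the lower direction. *Apoe*, a lipoprotein of macrophages and steroid-making cells that accepts exported cholesterol, had 345, 286, 255 and 351 CPM in the libraries labelled WT and 281, 255, 249 and 213 in those labelled GOAT KO, with a log2 fold change of -0.31 ± 0.11. It missed the rule without WT 1118, WT 1121 or GOAT KO 1146, at unadjusted p between 0.0571 and 0.0619 in edgeR, and passed in the 6 libraries at -0.46 with an unadjusted p of 0.000475. The 7 macrophage markers summed to between 128 and 167 CPM in the former and to between 104 and 131 in the latter, 3 of the 7 passed the looser rule in the lower direction, beside 1.27% of all genes, and none was at 0 in all libraries. Their part in the *Apoe* value was not tested.

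Among 15 genes of peroxisomal side-chain oxidation, the pathway of SCPx, none passed. Of these, 13 had a positive log2 fold change, beside 8282 of the 16601 genes tested, and the median was 0.08. *Amacr*, the racemase that acts before the thiolase, had 11.7 ± 0.360 against 12.8 ± 0.442 CPM without overlap between the groups, with a log2 fold change of 0.13 and an unadjusted p of 0.143 in edgeR. *Acox3*, a branched-chain oxidase, had a log2 fold change of 0.11 with a p of 0.157. *Scp2* changed by 0.46 on the same scale, and no difference between it and the list was tested.

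The neighbours of *Scp2* on chromosome 4 gave values near 0, other than the closest on either side. *0610037L13Rik*, *Cpt2*, *Zyg11b* and *Coa7* had log2 fold changes between -0.01 and 0.02. *Echdc2*, which starts 46.9 kb beyond the start of the long form and 20.4 kb beyond the annotated end of the gene, had 76.3 ± 4.63 CPM in the libraries labelled WT and 84.5 ± 4.04 in those labelled GOAT KO, a log2 fold change of 0.15 ± 0.06 (unadjusted p in edgeR 0.0402, adjusted 0.983). *Podn* lies on the same strand and has 1 exon of 43 bases inside an intron of *Scp2*. It had 15, 11, 14 and 20 counts in the libraries labelled WT and 79, 23, 32 and 32 in those labelled GOAT KO. The groups did not overlap, and the log2 fold change was 1.49 ± 0.41 with an adjusted p of 0.983 in edgeR. It was 0.94 without GOAT KO 1139 and 0.90 in the 6 libraries.

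The genes whose pattern over the 8 libraries was most like that of *Scp2*, by Pearson's r of log2 CPM, were *Dab1* (r = 0.97), *Styxl1* (0.97), *Sele* (0.97), *Acat1* (0.96) and *Pbxip1* (0.96). These r describe libraries that differ by group. *Styxl1* and *Sele* were near the floor, at a mean of 0.597 and 0.553 CPM. *Dab1*, with an adjusted p of 0.000487 in edgeR, passed the same threshold by which *Scp2* was chosen. *Dab1* also lies on chromosome 4 (chr4:103619359-104744844), 3.299 Mb from *Scp2*, and had 18, 17, 18 and 17 counts in the libraries labelled WT and 116, 76, 119 and 142 in those labelled GOAT KO. *Acat1* is the mitochondrial acetyl-CoA thiolase and not the esterifying enzyme, and its log2 fold change was 0.09. For the other genes the closest patterns were those of *Cluh* for *Scarb1* (0.99), *Slc25a12* for *Npc1* (0.98), Gm22680 for *Npc2* (0.99), *Chrdl2* for *Stard3* (0.94), *Lss*, an enzyme of cholesterol synthesis, for *Soat1* (0.98), *Fasn*, the fatty acid synthase, for *Lipe* (0.99) and Gm12693 for *Abca1* (0.95). Each of these r is the highest found among all genes tested, over only 8 libraries, so a high value follows from the search and shows no shared control.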

How the data were processed

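The authors sequenced total RNA of whole ovaries (50-base single reads), aligned it with TopHat2 2.0.14 to mm10 (GRCm38) and deposited whole-number counts per gene symbol, read counts per splice junction, and transcripts assembled with StringTie 1.0.4 with their depth. The counting tool and strand setting are not given in the sources used here. A deposited table of mapping summaries was not used.

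Here the counts of 4 libraries labelled WT and 4 labelled GOAT KO were compared with edgeR 4.0.16 in R 4.3.3 (TMM, filterByExpr with at least 10 counts, quasi-likelihood test, Benjamini-Hochberg over 16601 genes). CPM and RPKM were computed from these counts. RPKM used the merged length of all exons of a gene in GENCODE M21, a later release than that of the authors (M6). Values that single libraries give were compared by exact permutation in scipy 1.17.1. Copies were sought with blastn 2.17.0 (at least 95% identity over 100 bases). The edgeR script was tested on simulated data.

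The members and lists were chosen with earlier results of these data known. Some genes of the uptake list are not reported here and were left out of its counts. The genes named are the 8 members, *Mboat4*, in each list those called or else the 2 with the smallest p, the 3 nearest tested genes on either side of *Scp2*, the 5 genes most like *Scp2* in log2(CPM + 0.5) and the 1 most like each other member. *Star*, *Dctn6*, *Scp2-ps2* and the markers named were added after their values were seen. A planned share of short-form junction reads could not be computed, since the short form has no junction of its own. The depth of the long-form exons against the copy and the *Scarb1* exon share took its place and were chosen after seeing the data. Alternatives were RLE size factors, no filter, DESeq2 1.42.0, limma-voom (limma 3.58.1), 6 libraries without WT 1120 and GOAT KO 1139, and each library left out. The study left 1 library of each group out as an outlier without naming it, and the choice of these 2 was made here.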

Additional observations from a re-analysis of the deposited data

Results flagged for a closer look

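Among 38 groups of 4 libraries examined for a library far from the others of its group, 4 held one, where chance gives about 1 in 20 groups. *Scarb1* stood at 408 CPM in WT 1120. *Soat1* stood at 816 CPM in GOAT KO 1146. *Lipe* stood at 70.4 CPM in GOAT KO 1139. Skipping of the *Scarb1* exon stood at 35.4% in GOAT KO 1146.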

How the results depend on the processing

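No paired analysis was possible because the replicate numbers are animal numbers, which the groups do not share. Genes called at an adjusted p numbered 4, 7 without a filter on low counts, 13 with DESeq2 and 20 with 6 libraries, and 3 to 14 when each library was left out. By the looser rule they numbered 473, 918 without a filter, 793 with 6 libraries, and 382 to 866 with a library left out. Members called at an adjusted p numbered 1, and 0 with *Scp2* and its copy summed (log2 fold change 0.42) or 0 to 1 with a library left out (0.43 to 0.48). By the looser rule 1 to 2 members were called with a library left out, the second being *Scarb1* without WT 1120. Genes of the lists called by it numbered 2, 4 without a filter, and 0 to 6 with a library left out (0 without WT 1118, 6 without WT 1120, 1 without WT 1121).

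With a library left out, log2 fold changes ran from -0.12 to 0.61 for *Scarb1*, -0.070 to 0.034 for *Npc1*, -0.019 to 0.052 for *Npc2*, -0.064 to 0.031 for *Stard3*, -0.14 to 0.40 for *Lipe* and -0.25 to 0.066 for *Abca1*. With 6 libraries, *Stard3* was at 0.020, *Lipe* at -0.079 and *Abca1* at 0.17. Of the other genes whose log2 fold change was recomputed (those of the rule for named genes, *Star* and *Scp2-ps2*), those that turned sign with a library left out were *Star* (-0.52 to 2.3), *0610037L13Rik* (-0.066 to 0.014), *Cpt2* (-0.050 to 0.076), *Zyg11b* (-0.024 to 0.046), *Coa7* (-0.050 to 0.13), *Cluh* (-0.058 to 0.13), *Slc25a12* (-0.046 to 0.074), Gm22680 (-0.065 to 0.25), *Fasn* (-0.17 to 0.44) and Gm12693 (-0.12 to 0.062). With 6 libraries *Star* was at -0.10, *0610037L13Rik* was at 0.030, *Zyg11b* at -0.015, *Fasn* at -0.061 and Gm12693 at 0.11, and without a filter *Cpt2* was at -0.00028. The cause was not tested.

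The long-form depth of *Scp2* differed between the groups by 14.3 percentage points of the depth of the copy, and by 12.5 to 16.5 with a library left out. On other scales the difference was 30.5 points of the depth of the last exon, 32.9 junction reads per 100 reads of the copy, and 20.3 with the 7 junctions that all libraries list. Groups of 4 cannot give a permutation p under 0.0286, and 3 against 4 none under 0.0571. Junctions with few reads, and exons that the assembly left out, limit the values by exon.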
